A study of Mus musculus with 12 samples.

Results

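RNA sequencing counts of primary mouse hepatocytes were taken from 12 libraries in 4 groups (control, OA, BBR and BBR+OA), with 3 libraries per group. OA is oleic acid, a fatty acid used to load hepatocytes with lipid, and BBR is benzbromarone, a drug that lowers uric acid. The cells came from male C57BL/6J mice aged 6 weeks. They were exposed for 16 h to 15 µM BBR, to 0.2 mM OA given with bovine serum albumin, or to both. Control cells received neither BBR nor OA. The study's methods do not say whether cells without OA received albumin. The part of albumin in the OA differences was not tested. The labels give liver as the tissue and 3 biological replicates per group, and do not say whether replicates were separate animals or separate wells, so p-values measure the spread between these libraries, which may be technical. The genes described here are the 10 genes of the Cyp2b, Cyp3a, CAR and PXR set, found by symbol among 22471 features: the cytochromes P450 Cyp2b9, Cyp2b10, Cyp2b13, Cyp3a11, Cyp3a13, Cyp3a16 and Cyp3a25, the P450 reductase Por, and the receptors Nr1i2 (PXR) and Nr1i3 (CAR). The set was chosen by gene name with the measured values already known, mainly the level of Cyp2b10 in OA-treated cells and of Cyp3a11 in BBR-treated cells, so those differences are given below as descriptions without a test, and the counts of members called in each comparison support nothing by themselves.

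CAR and PXR are nuclear receptors of the hepatocyte that bind drugs, bile acids and other small molecules, pair with the retinoid X receptor and bind response elements near their target genes. Cyp2b10 is the classical target of mouse CAR and Cyp3a11 that of mouse PXR, and each responds in part to the other receptor. The encoded enzymes sit in the endoplasmic reticulum, oxidize drugs and steroids, carry a heme group, and receive their electrons from the reductase encoded by Por.

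The 3 Cyp2b genes lie together on chromosome 7 within 313042 bases (GRCm38, chr7:25897620-26210661, plus strand). Cyp3a16, Cyp3a11 and Cyp3a25 lie on chromosome 5 within 573310 bases (chr5:145436309-146009618, minus strand). Cyp3a13 (chr5:137892932-137921619, minus strand) and Por (chr5:135670033-135735326, plus strand) stand apart from that cluster on the same chromosome. Nr1i2 is on chromosome 16 (chr16:38248323-38294824, minus strand) and Nr1i3 on chromosome 1 (chr1:171213970-171220701, plus strand). All 10 are annotated as protein-coding genes.

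The promoter windows of the Cyp2b genes are shown first, because Cyp2b10 is the member whose level moved the most while its neighbours stayed at or under the detection floor. The windows run from 250 bases before to 50 bases after the RefSeq start (GRCm38.p6) at chr7:25897408-25897707 for Cyp2b10, chr7:26173159-26173458 for Cyp2b9 and chr7:26061245-26061544 for Cyp2b13, all on the plus strand. Capitals mark every match on either strand to AGGTCA or AGTTCA, the 6-base elements to which nuclear receptors of this class bind.
Cyp2b10: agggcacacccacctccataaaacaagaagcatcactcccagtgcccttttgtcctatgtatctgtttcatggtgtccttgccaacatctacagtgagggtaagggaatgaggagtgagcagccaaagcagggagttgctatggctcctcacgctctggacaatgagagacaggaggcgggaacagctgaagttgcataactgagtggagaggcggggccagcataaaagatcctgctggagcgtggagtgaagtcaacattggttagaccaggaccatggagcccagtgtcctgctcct
Cyp2b9: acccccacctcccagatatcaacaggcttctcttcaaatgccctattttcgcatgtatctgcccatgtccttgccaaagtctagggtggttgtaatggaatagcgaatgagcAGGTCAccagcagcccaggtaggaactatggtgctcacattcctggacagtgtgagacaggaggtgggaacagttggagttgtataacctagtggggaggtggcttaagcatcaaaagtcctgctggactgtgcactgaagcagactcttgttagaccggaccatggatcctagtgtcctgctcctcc
Cyp2b13: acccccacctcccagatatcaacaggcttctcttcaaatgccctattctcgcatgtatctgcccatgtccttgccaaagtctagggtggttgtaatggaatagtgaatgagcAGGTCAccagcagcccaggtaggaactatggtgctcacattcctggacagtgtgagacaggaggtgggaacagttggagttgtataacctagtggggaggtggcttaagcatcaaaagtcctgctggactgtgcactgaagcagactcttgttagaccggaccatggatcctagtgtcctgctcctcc

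The windows of Cyp2b9 and Cyp2b13 differed at 2 of 300 bases. Cyp2b10 was identical to Cyp2b9 at 77.2% of 289 aligned bases and held no match to either element, whereas the other two each held 1 AGGTCA. Of all 32851 promoter windows, which have the same length, 16.3% held AGGTCA and 14.0% held AGTTCA, and 27.7% held at least 1 of them. A match describes letters in a window and not a bound site, and elements farther from the start were not searched.

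Cyp3a11 and Cyp3a13 are shown next, because they moved in opposite directions with BBR. Their windows are chr5:145879805-145880104 and chr5:137921570-137921869, both read from the minus strand, with capitals as above.
Cyp3a11: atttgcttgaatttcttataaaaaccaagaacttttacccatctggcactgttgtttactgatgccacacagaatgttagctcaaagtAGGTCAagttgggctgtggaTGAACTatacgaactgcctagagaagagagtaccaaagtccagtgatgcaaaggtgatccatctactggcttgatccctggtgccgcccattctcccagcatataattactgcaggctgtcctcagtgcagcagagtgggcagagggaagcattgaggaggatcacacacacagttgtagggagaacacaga
Cyp3a13: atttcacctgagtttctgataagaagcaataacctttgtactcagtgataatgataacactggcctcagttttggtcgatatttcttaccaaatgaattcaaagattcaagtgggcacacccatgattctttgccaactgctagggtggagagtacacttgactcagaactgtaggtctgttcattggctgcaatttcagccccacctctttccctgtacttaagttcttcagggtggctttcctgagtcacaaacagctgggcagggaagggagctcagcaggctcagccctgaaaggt

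The Cyp3a11 window held 1 AGGTCA and, on the other strand, 1 AGTTCA. It also held the stretch agctcaaagtAGGTCA, a match to the spaced direct repeat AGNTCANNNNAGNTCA (a DR4 element), which was found in 41 of the 32851 windows (0.125%). The Cyp3a13 window held none of these. Of the 10 members, 4 held AGGTCA (Cyp2b9, Cyp2b13, Cyp3a11 and Cyp3a25), 1 held AGTTCA and 1 held the DR4 letters.

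Library totals ranged from 15485508 to 23668379 counts, so that a gene without counts could still have had up to 3 counts, or 0.126 to 0.193 CPM (counts scaled by TMM-adjusted library size). This floor covers counting error only. The hepatocyte markers Alb, Ttr, Apoa1, Hnf4a and Asgr1 were present in every library. Their sum was 29362 to 30891 CPM in control and 34461 to 36100 CPM in OA libraries. Most of that sum was Alb, with means of 28117 CPM in control and 32114 CPM in OA libraries. Of the 5 markers, 3 were called higher in OA against control, and 1 higher and 2 lower in BBR against control. Markers of other liver cells were low, with 1 exception: the summed level of the biliary list (Krt7, Krt19, Epcam, Sox9 and Spp1) was 590 to 722 CPM in control, 391 to 422 in BBR, 242 to 272 in OA and 199 to 240 in BBR+OA libraries. Most of that sum was Spp1, and Krt7 was at 0 in the control libraries. The Kupffer cell list of 6 markers had a median sum of 17.4 CPM in control, 16.6 in BBR, 21.2 in OA and 23.0 in BBR+OA libraries, with single libraries between 12.6 and 27.03 CPM. In OA against control, 2 of its markers were called higher and 4 lower, and in BBR against control 1 was called lower. Of the biliary markers, 3 were called higher and 1 lower in BBR against control. The sinusoidal endothelial list, with 2 markers called higher in BBR against control and 2 higher and 2 lower in BBR+OA against BBR, summed to between 33.4 and 43.01 CPM and the stellate list to between 18.6 and 25.8 CPM. These sums moved with the treatments alongside the members below, and their part in the results was not tested. In bulk samples, fewer cells of a type and less RNA per cell cannot be told apart.

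Levels were first compared between genes by FPKM, the deposited value per length. In control cells Por and Cyp3a11 had the highest FPKM levels of the set, 74.3 ± 3.74 and 69.0 ± 4.60 (SD, n = 3), with overlapping libraries. Cyp3a13 followed at 28.2 ± 1.44, then Nr1i2 at 5.97 ± 0.17 and Cyp3a25 at 3.16 ± 0.11, each apart from its neighbours in all 3 libraries. Cyp2b10 at 0.453 ± 0.068 and Nr1i3 at 0.400 ± 0.044 were the lowest of the detected members and overlapped each other. Cyp2b13 and Cyp3a16 had 0 counts in all 12 libraries. Cyp2b9 had 2 counts and 1 count in BBR replicates 1 and 2 and 1 count in BBR+OA replicate 3, all under the floor, so no fold was computed for these 3 genes. The remaining 7 members had counts in every library.

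**Figure D1:**
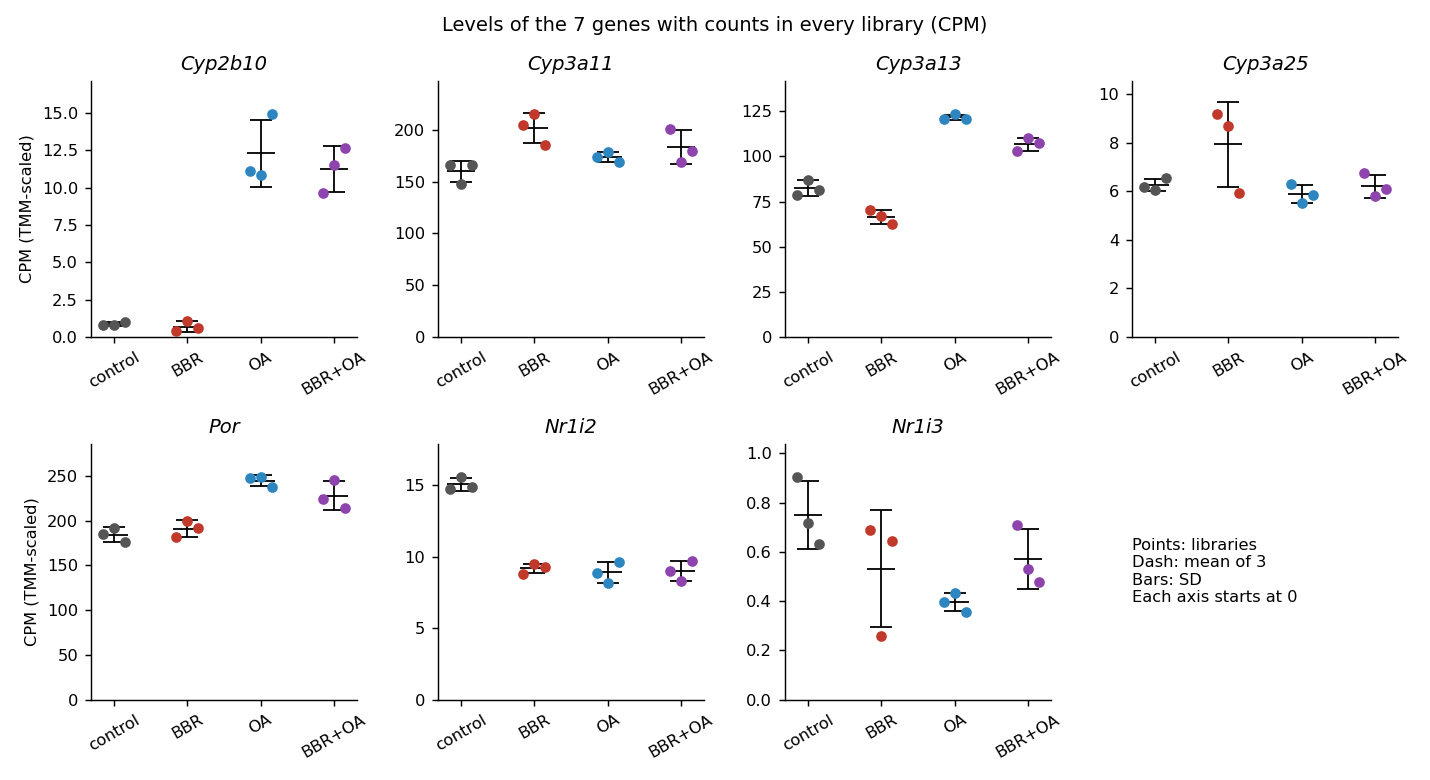
Level of each of the 7 detected members in CPM (vertical axes from 0) in the 12 libraries, grouped as control, BBR, OA and BBR+OA. Points are libraries, dashes the mean of 3 and bars the SD. Cyp2b10, Cyp3a13 and Por stood higher in both groups with OA, and Nr1i2 stood at about 15 CPM in control and about 9 CPM in the other groups.

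Reads that paralogs could share bear on how firmly these values can be read. Over windows of 50 bases, 9.69% of the longest protein-coding transcript of Cyp2b10 also occurred in transcripts of other genes, and over windows of 100 bases none did. For Cyp3a11 the shares were 14.8% and 0.312%, the latter shared with Cyp3a44 and Cyp3a16. Transcripts of Cyp3a13, Por and Nr1i2 shared no window of either length with any other gene. Cyp3a25 shared 26.8% of its 50-base windows, mostly with Cyp3a59. Its deposited counts were fractional in 4 libraries and became whole in all 12 when those of Cyp3a59 were added (tolerance 0.011 counts), so the split between these genes is uncertain. Nr1i3 overlaps Tomm40l, a gene on the opposite strand, over 4691 bases, and 58.1% of its 50-base windows matched that gene. Its deposited counts were fractional in all 12 libraries and whole after those of Tomm40l were added. Whether counting used strand is not given in the sources used here. Reads from the stretches that Nr1i3 and Tomm40l share therefore cannot be told apart.

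Cyp2b10 was the member with the largest difference. In control cells its level was 0.803, 0.764 and 1.01 CPM, from 16, 16 and 24 counts. In OA cells it was 11.1, 10.9 and 14.9 CPM. In BBR cells it was 0.368, 1.09 and 0.592 CPM, and in BBR+OA cells 9.62, 11.5 and 12.6 CPM. All 6 libraries with OA lay above all 6 without it, and the BBR libraries overlapped those of control. The fitted log2 fold change was 3.83 (SE 0.19) for OA against control, a 14.2-fold difference, and 4.10 (SE 0.24) for BBR+OA against BBR, a 17.1-fold difference. These comparisons had been seen when the gene was chosen, so they are given without a test. BBR itself left no called change: the log2 fold change was −0.40 (95% interval −1.19 to 0.40) without OA and −0.14 (−0.42 to 0.14) with OA, with edgeR adjusted p = 0.480 and 0.617. With 8 to 24 counts per library in the groups without OA, differences within the first interval were not detectable at this depth. Although higher in OA cells, Cyp2b10 remained a small part of the Cyp2b and Cyp3a total, 0.449% ± 0.060 of the summed FPKM in control and 5.16% ± 0.986 in OA cells (SD, n = 3).

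Cyp3a11, the most abundant P450 of the set, stood at 166, 148 and 166 CPM in control cells and at 205, 215 and 186 CPM in BBR cells. All 3 BBR libraries lay above all 3 control libraries, with a log2 fold change of 0.34 (SE 0.059), 1.27-fold, given as a description since this difference was known when the set was chosen. In OA cells the level was 174, 179 and 169 CPM and in BBR+OA cells 201, 169 and 180 CPM, and these groups overlapped. The BBR effect in the presence of OA was 0.074 on the log2 scale (95% interval −0.053 to 0.20, adjusted p = 0.553). The difference between the BBR effect with and without OA was −0.26 (SE 0.091, adjusted p = 0.0729) in the fit on all 12 libraries, which did not pass the threshold of 0.05. It passed with DESeq2 (adjusted p = 0.0397) and without the filter on low counts (adjusted p = 0.0332), and in edgeR without BBR replicate 3 (adjusted p = 0.0341) or BBR+OA replicate 1 (adjusted p = 0.0146). Every OA library lay above every control library, with a fitted log2 value of 0.13 (SE 0.054, adjusted p = 0.0741) and no call, although without OA replicate 3 it was called (adjusted p = 0.0464). BBR+OA against BBR gave −0.14 (SE 0.064, adjusted p = 0.0999). It was called under upper quartile scaling (−0.18, adjusted p = 0.0363) and without BBR replicate 3 (adjusted p = 0.0357) or BBR+OA replicate 1 (adjusted p = 0.0136). The interaction and BBR+OA against BBR both use the BBR libraries, whose Cyp3a11 level was known when the set was chosen. Their p-values therefore describe the fits and support nothing by themselves.

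Cyp3a13, the Cyp3a gene outside the cluster, moved the other way with BBR. It measured 78.6, 87.2 and 81.2 CPM in control and 70.2, 67.2 and 62.5 CPM in BBR cells, with no overlap, a fitted log2 difference of −0.30 (SE 0.056, adjusted p = 8.23e-04). In OA cells it measured 121, 123 and 121 CPM, above every control library (0.57, SE 0.051, adjusted p = 7.94e-07), and in BBR+OA cells 103, 110 and 107 CPM, above every BBR library (0.68, SE 0.051, adjusted p = 1.68e-07). The BBR+OA libraries in turn lay below all 3 OA libraries, by a fitted log2 difference of −0.19 (SE 0.047, adjusted p = 0.0318). That call was lost without OA replicate 1, OA replicate 2 or any single BBR+OA replicate, with adjusted p between 0.0616 and 0.125 and a log2 fold change between −0.21 and −0.16 over the 6 fits that left out a replicate. The interaction of BBR and OA was 0.12 (SE 0.072, adjusted p = 0.340).

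The balance between the 2 genes was also read within each library as the ratio of their FPKM levels, which does not depend on library scaling. The ratio of Cyp3a11 to Cyp3a13 was 2.67, 2.14 and 2.57 in control, 3.68, 4.03 and 3.75 in BBR, 1.81, 1.83 and 1.76 in OA and 2.46, 1.93 and 2.11 in BBR+OA libraries. BBR libraries were above all others and OA libraries below all others, while BBR+OA overlapped control. Cyp3a11 made up 68.4% ± 2.39 of the summed Cyp2b and Cyp3a FPKM in control and 76.2% ± 0.754 in BBR cells, against 59.5% ± 1.04 in OA and 63.3% ± 2.85 in BBR+OA cells. The summed FPKM was 101 ± 3.27 in control, 113 ± 8.51 in BBR, 124 ± 2.11 in OA and 122 ± 6.19 in BBR+OA cells (SD, n = 3). The ratio was examined after the values were seen and is a description.

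**Figure D2:**
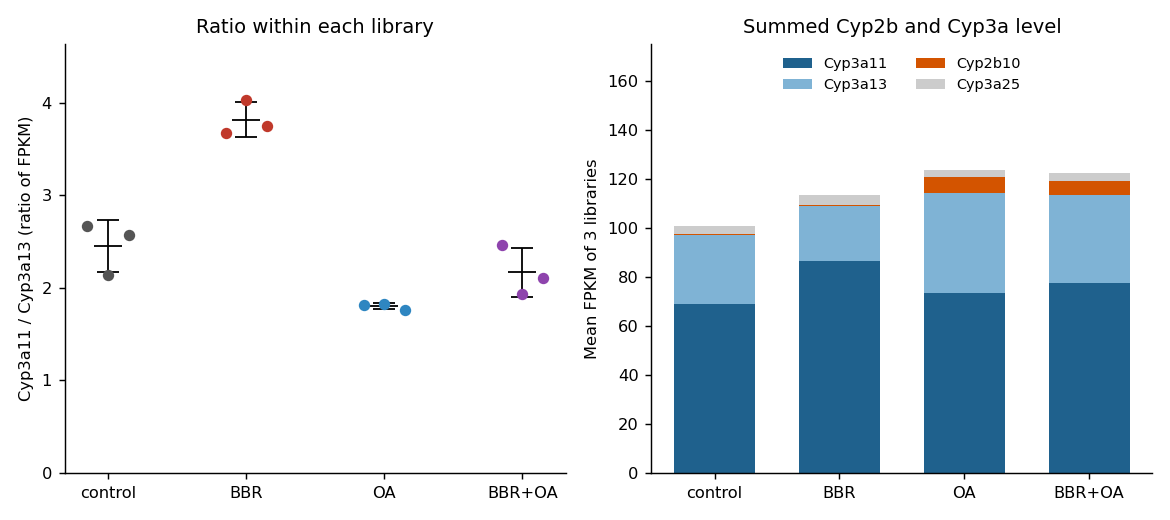
Left, the ratio of Cyp3a11 to Cyp3a13 FPKM in each library (points), with the mean of 3 and SD per group. Right, mean FPKM of the detected Cyp2b and Cyp3a genes stacked by group. The ratio was 3.68 to 4.03 in BBR and 1.76 to 1.83 in OA libraries, and Cyp2b10 was visible in the stack only in the groups with OA.

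Cyp3a25 was lower than Cyp3a11 and Cyp3a13 by FPKM and passed no test in the 4 comparisons or the interaction. It measured 6.17, 6.06 and 6.53 CPM in control, 9.16, 8.69 and 5.92 in BBR, 6.28, 5.52 and 5.82 in OA and 6.73, 5.81 and 6.08 in BBR+OA libraries. BBR replicates 1 and 2 stood above all other libraries and BBR replicate 3 among them. BBR against control gave a fitted log2 difference of 0.35 (SE 0.15, adjusted p = 0.0940), and BBR+OA against BBR gave −0.35 (SE 0.16, adjusted p = 0.0911). Without BBR replicate 3 the first became 0.52 with adjusted p = 0.00760 and the second −0.53 with adjusted p = 0.00788.

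Por, the electron donor of all these enzymes, measured 185, 192 and 176 CPM in control and 182, 200 and 192 CPM in BBR cells, which overlapped (0.059, SE 0.050, adjusted p = 0.422). It measured 248, 249 and 238 CPM in OA cells, above every control library, with a fitted log2 difference of 0.42 (SE 0.049, adjusted p = 1.18e-05). In BBR+OA cells it measured 224, 246 and 214 CPM, above every BBR library (0.25, SE 0.054, adjusted p = 0.00172). BBR+OA against OA gave −0.11 (95% interval −0.22 to 0.0094, adjusted p = 0.308), with overlapping libraries.

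The transcript of PXR was lower in every treated group. Nr1i2 measured 14.8, 15.6 and 14.9 CPM in control, 8.79, 9.47 and 9.26 CPM in BBR, 8.89, 8.17 and 9.65 CPM in OA and 9.01, 8.30 and 9.71 CPM in BBR+OA libraries. The 3 control libraries stood above the other 9, and the 3 treated groups overlapped each other. Against control it was lower with BBR, by a fitted log2 difference of −0.71 (SE 0.087, adjusted p = 1.44e-05) or 1.64-fold, and with OA, by −0.75 (SE 0.092, adjusted p = 1.67e-05) or 1.68-fold. These 2 comparisons share the control libraries. With OA present, BBR gave a log2 fold change of 0.0094 (95% interval −0.23 to 0.25, adjusted p = 0.977), and with BBR present OA gave −0.027 (−0.25 to 0.20, adjusted p = 0.868). The interaction was 0.73 (SE 0.13, 95% interval 0.46 to 1.0, adjusted p = 9.99e-04), and among the members it was the only one called. Multiplying the separate BBR and OA folds would put the combined group at 5.42 CPM, and the measured mean was 9.01 ± 0.707 (SD, n = 3). In BBR cells the gene for PXR fell while its classical target Cyp3a11 was higher. Of 25 other CAR or PXR responsive genes tested there, 1 was called higher and 10 lower. Of all genes tested, 13.2% were called higher and 14.5% lower.

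**Figure D3:**
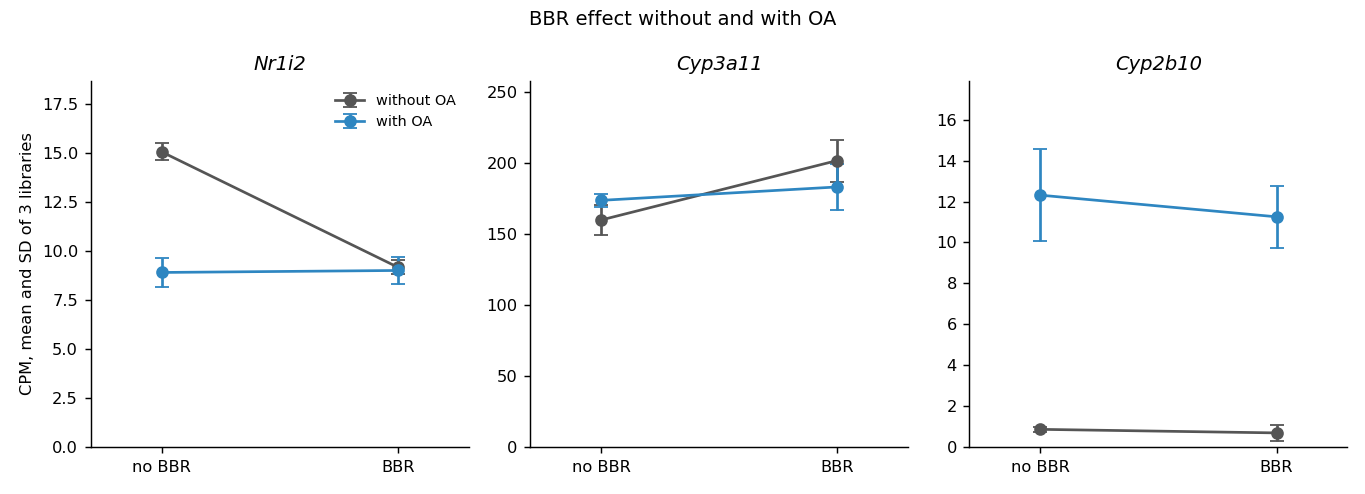
Mean CPM of 3 libraries (bars, SD) without and with BBR, for cells without OA (grey) and with OA (blue), for Nr1i2, Cyp3a11 and Cyp2b10. The Nr1i2 lines met near 9 CPM in the BBR groups, the Cyp3a11 lines crossed, and the Cyp2b10 lines stayed apart.

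The transcript of CAR was close to the detection floor. Nr1i3 measured 0.903, 0.716 and 0.632 CPM in control, 0.690, 0.258 and 0.646 CPM in BBR, 0.396, 0.433 and 0.358 CPM in OA and 0.709, 0.528 and 0.477 CPM in BBR+OA libraries. OA libraries lay below all control libraries, with a fitted log2 difference of −0.90 (SE 0.36, adjusted p = 0.0584), and BBR against control gave −0.42 (SE 0.38, adjusted p = 0.448), so neither was called. Under upper quartile scaling the OA difference was called, at −0.94 with adjusted p = 0.0472. BBR+OA libraries lay above OA libraries, but the gene did not pass the filter on low counts in that comparison and was not tested there. The SE was far larger than that of Nr1i2, and the split of reads with Tomm40l is uncertain as well.

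**Figure D4:**
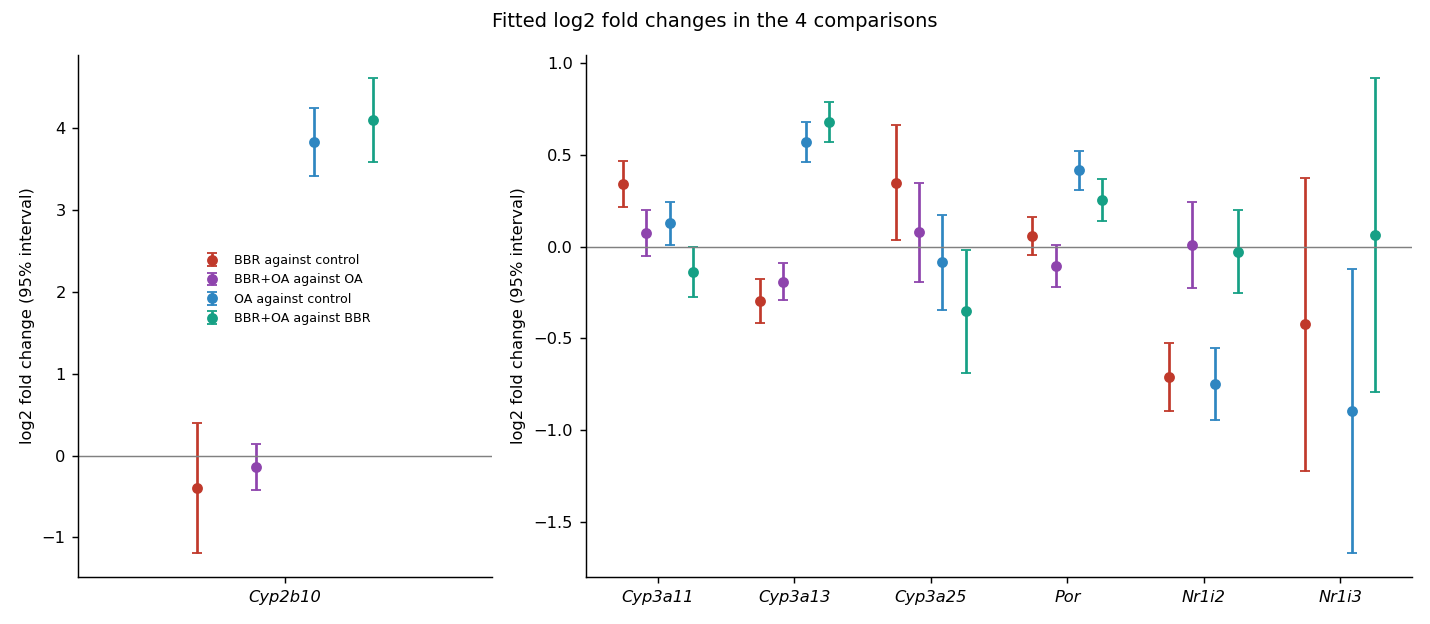
Fitted log2 fold changes of the 7 detected members with 95% intervals, 1 colour per comparison, with Cyp2b10 on its own scale. Cyp3a13 and Por lay above 0 in both OA comparisons, Nr1i2 lay below 0 in the comparisons with control and near 0 in the other two, and the Nr1i3 intervals were the widest on the right.

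Counted over the set, 7 of the 10 members passed the filter on low counts for BBR against control, and 1 was called higher and 2 lower, where 13.2% of all genes tested were called higher and 14.5% lower. For BBR+OA against OA, 6 members were tested and 1 was called lower, with 1.95% of all genes higher and 2.63% lower. For OA against control, 7 were tested, 3 were called higher and 1 lower, with 21.3% of all genes higher and 21.5% lower. In BBR cells, adding OA left 7 members tested and 3 called higher, with 20.1% of all genes higher and 18.8% lower. Under upper quartile scaling the calls over all genes shifted from 2643 higher and 2668 lower to 2077 and 3216 for OA against control, and from 2496 and 2330 to 1976 and 2870 for BBR+OA against BBR. In the interaction, 12.2% of all genes were called in either direction. The set was chosen with values known, so these shares are set beside each other and nothing is read from them.

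The rest of the pathway was taken from 4 lists of 64 genes in all: other Cyp2b and Cyp3a genes, other genes that respond to CAR or PXR, receptor partners and regulators, and genes of electron transfer and heme supply. Of 7 other Cyp2b and Cyp3a genes, Cyp3a59 alone passed the filter, and it was not called in any comparison.

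With BBR against control, 55 of the 64 pathway genes were tested, 5 were called higher and 21 lower, with a median log2 fold change of −0.057 against −0.00085 over all genes tested, of which 13.2% were called higher and 14.5% lower. The falls included 10 of the 25 tested CAR or PXR responsive genes and 6 of 17 partners and regulators. The largest fall was that of Nr0b2, which encodes the repressor SHP, by a fitted log2 difference of −2.12 (SE 0.31, adjusted p = 7.56e-05), from 1.98 ± 0.143 to 0.452 ± 0.162 CPM. Gadd45b, a stress-inducible gene, followed at −0.90, and Aldh1a1, a retinaldehyde dehydrogenase, at −0.85. The rises were led by genes of heme turnover: Hmox1, the heme-degrading oxygenase, at 0.98 (SE 0.091, adjusted p = 9.92e-07), and Alas1, the rate-limiting enzyme of heme synthesis, at 0.51 (SE 0.062, adjusted p = 1.33e-05). Alas1 rose from 56.0 ± 3.49 to 79.8 ± 6.16 CPM. The third was Med1, a subunit of the Mediator complex, at 0.20 (SE 0.058, adjusted p = 0.0158).

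With BBR+OA against OA, 3 of 55 pathway genes were called, 2 higher and 1 lower. Of all genes tested, 1.95% were called higher and 2.63% lower. Aldh1a7 was higher by a fitted log2 difference of 0.36 (SE 0.058, adjusted p = 0.00283) and its paralog Aldh1a1 by 0.20 (SE 0.052, adjusted p = 0.0399), while Egfr, the epidermal growth factor receptor, whose signalling holds CAR in the cytoplasm, was lower by −0.27 (SE 0.055, adjusted p = 0.0123). Aldh1a1 had a negative fold change with BBR alone and a positive one with BBR in OA cells.

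With OA against control, 9 of 55 pathway genes were called higher and 27 lower, with a median log2 fold change of −0.15 against −0.0060 over all genes tested, of which 21.3% were called higher and 21.5% lower. Gstm3, a glutathione transferase, fell from 15.4 ± 1.98 to 6.91 ± 0.908 CPM (−1.15, SE 0.12, adjusted p = 3.74e-06). Nr0b2 was lower with a log2 fold change of −1.25 and Ppargc1a, the coactivator PGC-1α, with −0.92. The 3 largest rises were Cyb5a, which encodes cytochrome b5 and also passes electrons to P450 enzymes, at 0.51 (SE 0.067, adjusted p = 3.01e-05), Aldh1a7 at 0.49 and Foxo1, a transcription factor of the fasting state, at 0.48. Of the 25 CAR or PXR responsive genes tested, 3 rose and 13 fell.

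With BBR+OA against BBR, 54 pathway genes were tested, 11 were called higher and 17 lower, with a median of −0.079 against −0.0061 over all genes tested, of which 20.1% were called higher and 18.8% lower. Aldh1a7 rose from 26.0 ± 2.05 to 67.0 ± 3.33 CPM (1.36, SE 0.064, adjusted p = 2.12e-09) and Aldh1a1 by 1.13 (SE 0.092, adjusted p = 3.29e-07). Gadd45b rose by 0.64. Among the falls, Hmox1 had a log2 fold change of −0.68, Ppargc1a of −0.84 and Abcc4, an efflux transporter, of −0.84 (SE 0.11, adjusted p = 4.81e-05). In the interaction of BBR and OA, 15 of 55 pathway genes were called above 0 and 2 below 0. Of all 12742 genes tested, 875 were called above 0 and 676 below 0, or 12.2% in either direction. Under RLE scaling these counts over all genes were 782 and 761. Aldh1a1, Aldh1a7 and Gstm3 had fractional counts, and reads of their paralogs may be included.

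**Figure D5:**
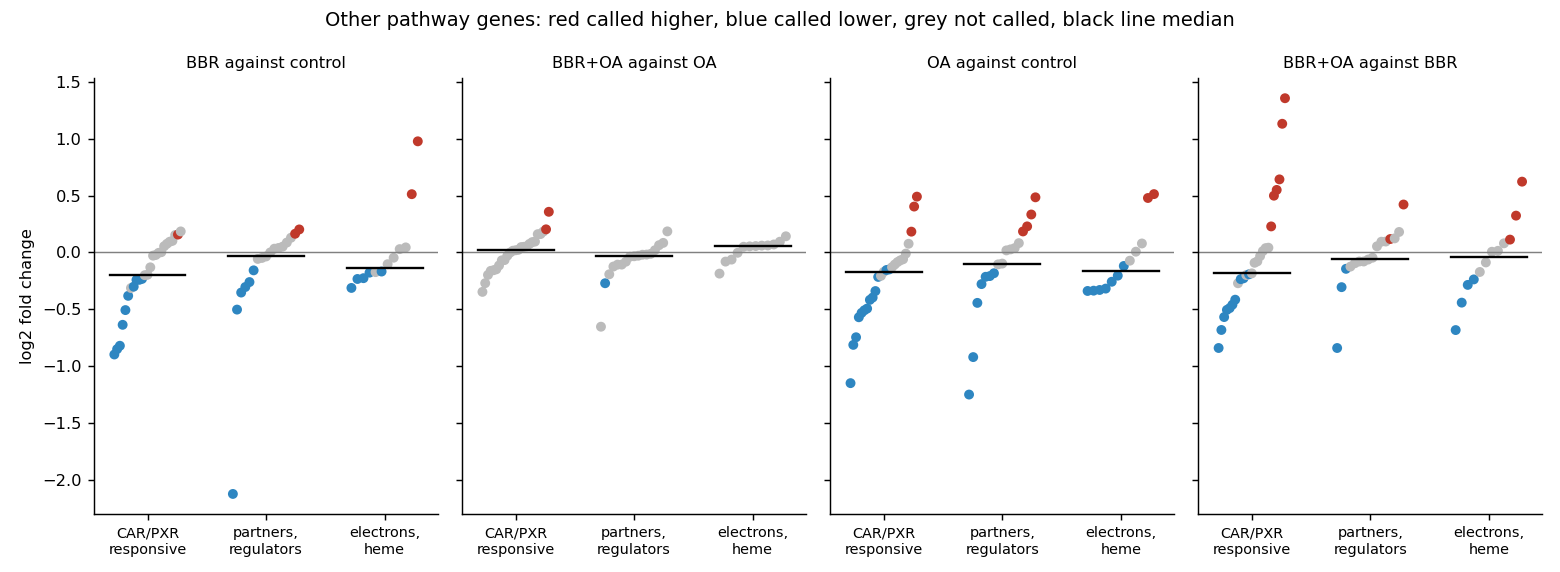
Fitted log2 fold changes of the tested pathway genes in 3 lists (columns) and 4 comparisons (panels). Points are genes, red called higher, blue called lower and grey not called, and black lines are medians. Most called genes lay below 0 except with BBR+OA against OA, where 3 genes were called.

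Profiles most like those of 3 members were ranked by the root mean square difference of log2 (CPM + 0.1) relative to the control mean over the 12 libraries, among 12741 other genes. Nearest to Cyp2b10 were Cdo1, cysteine dioxygenase, at 0.46, Eif4ebp3, a binding partner of a translation initiation factor, at 0.48, and H2-M9, a class I histocompatibility gene, at 0.50. Cdo1 stood at 35.5 ± 4.08 CPM in control and 324 ± 7.09 CPM in OA cells, and Eif4ebp3 at 0.825 ± 0.339 and 9.46 ± 0.908 CPM. H2-M9 had 0 counts in all control libraries and 1.25 ± 0.206 CPM in OA libraries. Nearest to Cyp3a11 were Dnajb14, Brd2 and Mfsd14b, with differences between 0.071 and 0.083. Those nearest to Nr1i3 (Dbn1, Arhgap19 and Tln2) were no closer than 0.23. Eif4ebp3 and Dnajb14 had fractional counts, and reads of other genes may be included. These ranks describe resemblance over 12 libraries that share treatments.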

How the data were processed

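Polyadenylated RNA of primary mouse hepatocytes was sequenced per the labels. Doses, hours and mouse age follow the methods of the study, and groups and replicate numbers were taken from the sample titles. The authors deposited, for each of 12 libraries, an estimated count and an FPKM value per feature, 22471 features, on mm10 per the submitters' processing notes. The aligner, the counter and strand use are not given in the sources used here. Of 21911 Ensembl identifiers, 99.71% were found in GENCODE M21 (GRCm38), which gave coordinates and transcripts. Promoter windows came from RefSeq (GRCm38.p6), with all 10 members matched.

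The deposited estimated counts were rounded to whole numbers. Each comparison was fitted on its 6 libraries in edgeR 4.0.16 (R 4.3.3) with filterByExpr (minimum count 10), TMM scaling and the two-sided quasi-likelihood F test, and the interaction was fitted on all 12 libraries. Adjusted p-values are Benjamini-Hochberg values over all genes tested, called under 0.05. SE came from the F statistic. Deposited FPKM values were used for levels between genes and not tested. The fits were also run on counts simulated with the same biological coefficient of variation for every gene. Nothing is concluded here from that run, because the spread of real genes differs. Replicate pairs exceeded sampling noise in all cases (chi-square per degree of freedom 2.69 to 7.26), and the biological coefficient of variation was 4.75% to 5.31%. Transcripts and promoters were aligned and searched with Python 3 scripts and Biopython.

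The members, the pathway lists and the markers were chosen with earlier results of these data known. Named pathway genes were, in each comparison, the 3 largest rises and 3 largest falls among those called. All members were named, and for Cyp2b10, Cyp3a11 and Nr1i3 the 3 nearest profiles. The hepatocyte marker Tf was not matched by symbol. Alternatives were RLE and upper quartile scaling, DESeq2 1.42.0, no filter on low counts, a replicate block, 1 fit over all 12 libraries and leaving out each replicate.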

Additional observations from a re-analysis of the deposited data

Results flagged for a closer look

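The BBR effect on Nr1i2 differed between cells without and with OA. The interaction term was 0.73 on the log2 scale (SE 0.13, edgeR adjusted p = 9.99e-04), as the effect was −0.71 without OA and 0.0094 with OA. The interaction stayed between 0.65 and 0.79 over the alternatives run, with adjusted p at most 0.00583. The 3 control libraries, at 14.8, 15.6 and 14.9 CPM, enter the interaction and both comparisons with control. The summed biliary markers were also highest in control, at 590 to 722 CPM, but most of that sum was Spp1. Other markers of the list went the other way with BBR. From control to BBR the means were 32.3 and 48.9 CPM for Sox9, 6.91 and 11.2 for Krt19, and 1.86 and 3.53 for Epcam. In OA cells the means of Sox9, Krt19 and Epcam were 48.6, 8.05 and 1.58 CPM. In BBR+OA cells they were 42.6, 8.51 and 2.70 CPM. The part of these markers in the result was not tested.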

How the results depend on the processing

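Of 443 fold changes of single members recomputed under the alternatives, 416 kept their direction and their side of the threshold, 15 gained a call, 5 lost it and 7 changed sign, the last in values that were not called. The 5 losses were those of Cyp3a13 in BBR+OA against OA given above. The sign changes were those of Nr1i2 in BBR+OA against OA (−0.050 when OA replicate 2 was left out and −0.042 without BBR+OA replicate 3, in a range of −0.050 to 0.077) and in BBR+OA against BBR (0.030 without BBR+OA replicate 2, range −0.080 to 0.030), Cyp2b10 in BBR+OA against OA (0.026 without OA replicate 3, range −0.23 to 0.026) and in the interaction (−0.064 without BBR replicate 1, range −0.064 to 0.73), and Nr1i3 in BBR+OA against BBR (−0.22 without BBR replicate 2 and −0.13 without BBR+OA replicate 1, range −0.22 to 0.30). Members called in the interaction went from 1 to 2 with DESeq2, with no filter on low counts and with the replicate block, where Cyp3a11 was added. Calls of Cyp3a11 that use the BBR libraries draw on a level known when the set was chosen. Leaving out 1 replicate at a time gave 1 to 2 members called in the interaction, 0 to 1 in BBR+OA against OA, 3 to 5 in BBR+OA against BBR (5 without BBR replicate 3), 3 to 4 in BBR against control and 4 to 5 in OA against control, and 1 to 5 pathway genes called in BBR+OA against OA, 25 to 29 in BBR+OA against BBR, 20 to 28 in BBR against control and 29 to 34 in OA against control. The cause of these changes was not tested.

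Libraries with the same replicate number were weakly correlated in their deviations from the group means (0.022 to 0.16 over the 4 comparisons). Those with different numbers gave −0.15 to 0.057. In 23 of 24 checks, made from both sides of each comparison, a library correlated best with its own number. The labels do not say what a replicate number marks, so the main fits used no replicate block. Their calls therefore ignore any effect shared by libraries of the same number. With the replicate block, 5 members were called in BBR+OA against BBR instead of 3, the added ones being Cyp3a11 (−0.14, adjusted p = 0.0352) and Cyp3a25 (−0.35, adjusted p = 0.0457), Cyp3a11 was also called in OA against control (0.13, adjusted p = 0.00281), and the block called 7 pathway genes in BBR+OA against OA instead of 3, and over all genes in that comparison 1333 instead of 563. Depth limits Nr1i3 and, without OA, Cyp2b10, with counts per library from 4.26 to 24, and leaves Cyp2b9, Cyp2b13 and Cyp3a16 under the floor.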
